A study of Mus musculus with 8 samples.

Results

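Loss of the nuclear receptor RORα from the uninjured colon epithelium was described by setting untreated knockout libraries against untreated floxed libraries, across every gene with enough reads to test. The members were taken from the labels alone: 2 libraries of RORaΔIEC mice and 2 of RORaf/f mice, 4 of the 8 libraries in the series, all from mice on the C57BL/6 strain that had received no dextran sulfate sodium (DSS). RORaf/f mice, called WT here, carry a floxed Rora gene, and RORaΔIEC mice, called KO here, have lost it in the intestine per the series' design text. The Cre driver, the age of the mice and whether the WT mice carried Cre are not given in the sources used here. RNA came from epithelial cells shaken loose from opened, washed distal colon. The labels give a passage number of 1, though they describe no culture. The other 4 libraries came from mice of the same genotypes that drank DSS at 2% (w/v) for 5 days and water for 3 days more, which injures the colon. Whether the 2 replicates of a group are separate animals is not stated, so the spread that every p-value here rests on could be technical.

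RORα is a nuclear receptor that binds single half-site response elements and, as a rule, activates the genes beside them, while REV-ERBα and REV-ERBβ (Nr1d1, Nr1d2) bind the same elements and repress. Its best known targets are clock genes, and it has also been tied to lipid metabolism and to the restraint of inflammatory gene expression. In the colon the epithelium is a single sheet of absorptive colonocytes, mucus-secreting goblet cells and rarer endocrine and tuft cells, renewed from stem cells at the base of each crypt.

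Rora was barely detected in any library, so the transcript gave only a weak check of the labels. Its expected counts were 12 and 6 in the WT libraries and 4 and 3 in the KO libraries, and its TPM, the authors' length-scaled unit, was 0.11 and 0.09 against 0.09 and 0.02. The count was 2.18 times as high in WT (95% exact interval 0.869 to 6.18, counting error only), and the log2 fold change of -1.10 ± 0.58 SE did not pass the test (adjusted p = 0.238, edgeR's quasi-likelihood test with Benjamini-Hochberg adjustment). Expected counts cover the whole gene, so reads from exons outside the floxed part would still count, and which exons are floxed is not given in the sources used here. The paralogue Rorb had 6 and 12 counts in WT and 2 and 2 in KO (3.82 times as high in WT, 95% exact interval 1.26 to 15.5, counting error only). Its TPM was 0.06 and 0.09 against 0.04 and 0.05. Nr1d1 was lower in KO, with 166 and 175 against 110.5 and 115 CPM (log2 fold change -0.60 ± 0.047 SE, adjusted p = 1.48e-06).

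The untreated libraries held 20418466 and 18163736 expected counts in WT and 15971642 and 16566885 in KO, so the KO libraries were the shallower ones, and the part of depth in the calls was not tested. At this depth 3 counts corresponded to 0.15 to 0.191 CPM, the count scaled to library size. Levels are given below as the WT libraries against the KO libraries, each pair in the order of replicates 1 and 2. The common biological coefficient of variation over the 4 groups was 3.49%. The chi-square per degree of freedom between the untreated replicates was 2.2 in WT and 1.3 in KO. Both were above the sampling level, so all were kept as separate libraries. Between the DSS-treated replicates, whose spread enters the same fit, it was 1.84 in WT and 5.09 in KO. Epithelial identity was checked against 11 markers (Epcam, Cdh1, keratins, villin, claudins, Cdx1 and Cdx2), whose summed level was 16200 and 16290 CPM in WT and 18750 and 18890 CPM in KO. Summed leukocyte markers were at 9.91 to 11.7 CPM, macrophage and dendritic cell markers at 10.2 to 11.5 CPM and T and NK cell markers at 6.54 to 8.80 CPM over all 4 libraries. Fibroblast and muscle markers summed to 22.4 and 19.7 CPM in WT and 25.1 and 23.97 CPM in KO, and 2 of 7 tested, Dcn and Col3a1, were called higher. In bulk RNA of this kind, a change in the number of cells of a type and a change in RNA per cell cannot be told apart.

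Of 14991 genes tested, 1378 were higher and 932 lower in untreated KO, which is 15.4% called in all, 9.19% higher and 6.22% lower ("called" means an adjusted p under 0.05). Most of these changes were small. The median absolute log2 fold change of called genes was 0.31, and 106 genes were at least 2-fold higher (0.707%) and 38 at least 2-fold lower (0.253%), together 0.961% of genes tested. Of the 144 genes past 2-fold, 115 were protein coding, 39 had a mean of at least 5 CPM in these libraries and 21 were under 1 CPM in both genotypes. The count of called genes moved with the libraries in the fit. It was 687 higher and 407 lower without WT replicate 1 and 780 and 446 without WT replicate 2. Leaving out KO replicate 1 gave 625 and 328, and leaving out KO replicate 2 gave 630 and 361. Leaving out a DSS-treated KO library raised it, to 1831 and 1337 (replicate 1) or 1833 and 1341 (replicate 2), and the 4 untreated libraries alone gave 1819 and 1584. Without each of the 8 libraries in turn, 482 of the higher and 237 of the lower genes were called every time.

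**Figure D1:**
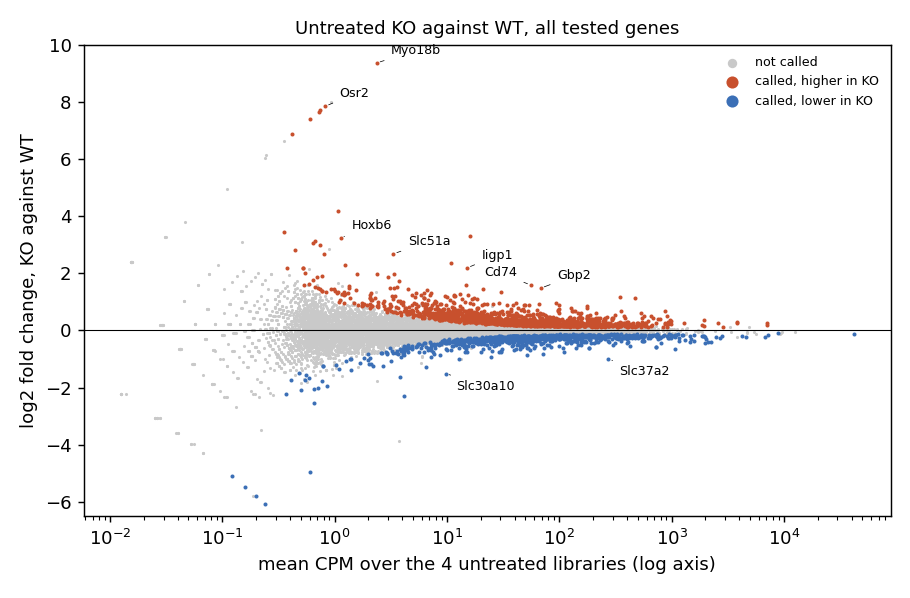
Each point is 1 of the 14991 tested genes, with its mean CPM over the 4 untreated libraries on a log axis and its log2 fold change of KO against WT. The 1378 genes called higher are red and the 932 called lower are blue, and the largest fold changes sit among genes of about 1 CPM, where Myo18b and Osr2 had no count in either WT library.

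Among genes of at least 5 CPM, the 15 largest rises included 8 genes of interferon-inducible GTPases and MHC class II presentation, and the 15 largest falls included carriers and cytochrome P450 enzymes. These 30 genes were named by rank, and up to 4 members of each gene list by p-value. Every other gene named below was chosen after its values were seen. The rises not taken up under a gene group below began with AY036118, a long noncoding RNA gene, at 1.45 and 4.65 against 34.1 and 24.3 CPM. On chromosome 17 it lies within the span of Gm42418, on the other strand. Gm42418 was called lower in KO, at 203.2 and 191.7 against 157.5 and 139 CPM. The adjacent Gm26917 did not pass, at 31.9 and 33.9 against 36.5 and 31 CPM. Under DSS the KO libraries of AY036118 were far apart, at 8.3 and 60.1 CPM. Ly6c1, a membrane-anchored Ly6 protein, was at 3.30 and 3.98 against 9.34 and 10.04 CPM and Clca4b at 4.46 and 3.81 against 11.3 and 9.55 CPM. Abca12, a lipid transporter, was at 3.90 and 4.48 against 10.3 and 9.49 CPM. AY036118 was the least stable of them: its adjusted p of 0.011 became 0.132 without WT replicate 1 and 0.0935 without KO replicate 1. Among the falls outside the gene lists were Best2, a chloride and bicarbonate channel of goblet cells, at 90.2 and 93.9 against 53.1 and 50.3 CPM, and Sun2, a nuclear envelope protein, at 134 and 143 against 78.3 and 84.7 CPM. Mettl7a2 was at 10.1 and 9.53 against 5.66 and 5.45 CPM, Dnajc28 at 9.06 and 9.92 against 5.72 and 5.51 CPM, Pamr1 at 7.61 and 8.01 against 4.51 and 4.78 CPM and the carbonyl reductase gene Cbr2 at 19.1 and 18.7 against 11.3 and 11.3 CPM. Without KO replicate 1 the adjusted p of Pamr1 went from 0.00412 to 0.056. S100g, the vitamin D-inducible calcium carrier calbindin-D9k, was at 12.9 and 9.53 against 5.91 and 6.49 CPM, and its adjusted p of 0.00536 became 0.101 without WT replicate 1 and 0.0719 without KO replicate 1. Libraries that do not overlap were part of the rule that chose the 30 genes. Over all genes tested, both KO libraries lay above WT in 31.3% and below it in 28%.

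**Figure D2:**
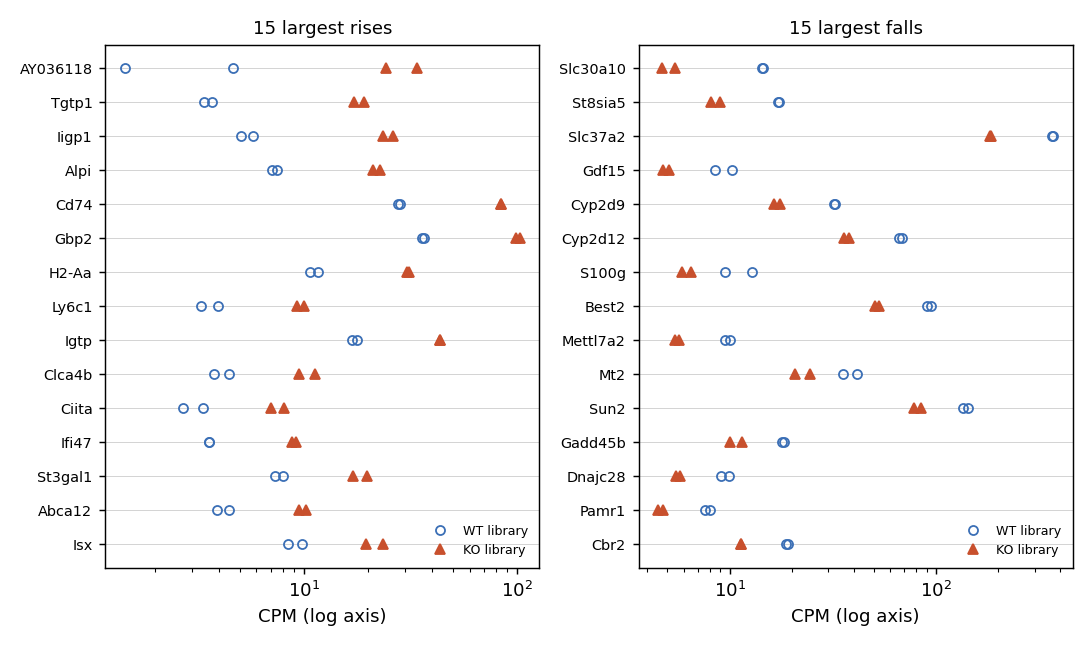
Each row is a gene, open circles are the 2 WT libraries and triangles the 2 KO libraries, and the horizontal axis is CPM on a log scale. By the rule that chose them, no KO library of these genes reaches the range of the WT libraries, and Slc37a2 stands out among the falls for its level (365 and 367 CPM in WT).

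Immunity-related GTPases (IRGs), interferon-inducible proteins that attack the vacuoles of intracellular pathogens, had the largest median rise of the gene lists. Of 9 tested members 8 were higher and none lower, against 9.19% and 6.22% of all genes, and the median log2 fold change was 1.47 where that of all tested genes was 0.007. Tgtp1 stood at 3.4 and 3.70 against 19.2 and 17.1 CPM, a log2 fold change of 2.35 ± 0.13 SE (adjusted p = 4.84e-08). Iigp1, which binds to the vacuole membrane, had 5.76 and 5.10 against 23.4 and 26.2 CPM (2.19 ± 0.11 SE, adjusted p = 2.77e-08). Igtp, also called Irgm3, had 17.8 and 16.9 against 43.7 and 43.5 CPM (1.33 ± 0.072 SE), and Irgm1, one of the regulatory IRGs that keep the others in check, had 49.9 and 45.5 against 78 and 78.4 CPM (0.71 ± 0.056 SE). Tgtp2 (1.97 ± 0.23 SE), Gm12250 (1.47 ± 0.22 SE), Ifi47 (1.32 ± 0.14 SE) and Irgm2 (0.90 ± 0.058 SE) completed the 8, and the tested member that did not pass was Gm4951, with 3 and 1 counts in WT and 5 and 7 in KO. Tgtp1 and Tgtp2 are near copies of each other, and so are several other IRGs, so how reads were shared between them depends on the authors' estimate of expected counts.

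Guanylate-binding proteins (GBPs), larger GTPases that coat pathogens and their vacuoles, rose beside them. Of 8 tested, 5 were higher and none lower, with a median log2 fold change of 0.784. Gbp2 changed with the smallest adjusted p of the list: it had 36.5 and 35.9 against 103 and 99.3 CPM (1.48 ± 0.050 SE, adjusted p = 3.96e-10). Gbp3 had 5 and 5.43 against 10.7 and 9.61 CPM, Gbp6 had 7.91 and 8.29 against 13.3 and 15.4 CPM and Gbp7 had 13.6 and 13.9 against 23.9 and 22.2 CPM. The KO libraries were above both WT libraries in each of these, which were named by small p, and in 31.3% of all genes tested. Gbp5, at 1.3 and 1.06 against 2.10 and 1.53 CPM, did not pass (adjusted p = 0.188). Gbp10, too low to be tested, had 0 and 2 counts in WT and 5 and 12 in KO, a ratio of 10 (95% exact interval 2.38 to 89.5).

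The promoters of these GTPases are shown for the stretches that match interferon-linked elements. The sequences are from RefSeq for GRCm38.p6, the 250 bases before each gene's start were searched on both strands, and capitals mark matches to GAAANN followed by GAAA, the interferon-stimulated response element, or to TTCNNNGAA, the element bound by STAT dimers. Matches to the 2 motifs may overlap. The stretches lie at chr11:58199496-58199546 (plus strand) for Igtp, chr11:58214887-58214937 (plus) for Irgm2, chr11:48992299-48992349 (minus) for Tgtp1, chr11:49064258-49064308 (minus) for Tgtp2 and chr11:48871421-48871465 (minus) for Irgm1. For Gbp2, Gbp3 and Gbp7 they lie at chr3:142620589-142620628, chr3:142559984-142560029 and chr3:142530215-142530307, all on the plus strand.
Igtp: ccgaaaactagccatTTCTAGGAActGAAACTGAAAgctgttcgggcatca
Irgm2: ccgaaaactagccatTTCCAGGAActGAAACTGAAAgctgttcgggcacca
Tgtp1: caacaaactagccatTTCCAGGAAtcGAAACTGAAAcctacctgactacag
Tgtp2: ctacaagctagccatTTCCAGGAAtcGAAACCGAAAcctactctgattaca
Irgm1: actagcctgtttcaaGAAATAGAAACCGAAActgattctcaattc
Gbp2: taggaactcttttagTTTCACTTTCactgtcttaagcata
Gbp3: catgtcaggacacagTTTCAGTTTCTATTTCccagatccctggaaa
Gbp7: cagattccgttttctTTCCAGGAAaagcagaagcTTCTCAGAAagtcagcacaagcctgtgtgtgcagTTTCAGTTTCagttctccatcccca
In Igtp, Irgm2, Tgtp1 and Tgtp2 a STAT element was followed after 2 bases by an interferon-stimulated response element. Irgm1, Gbp2 and Gbp3 had no STAT match in the stretch shown, and in Gbp7 the elements lay farther apart. Over the 51 bases shown, Igtp and Irgm2 were identical at 49, Tgtp1 and Tgtp2 at 39, and Igtp and Tgtp1 at 34. The interferon-stimulated response element was found in 6 of 7 IRG promoters and 4 of 5 GBP promoters, against 2.69% of the 13632 promoters of tested genes. It was found in 3.47% of promoters of genes called higher and 2.93% of those called lower. The STAT element was found in 5 of 7 IRG and 2 of 5 GBP promoters, against 6.04% of all. A match is a stretch of letters and says nothing of whether a factor bound there.

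MHC class II genes, which present extracellular antigen to helper T cells, included several of the larger rises. Of 11 tested genes of the pathway 7 were higher and none lower (median log2 fold change 1.10), and the same 7 were called without each library in turn. The invariant chain gene Cd74 had 28.2 and 27.6 against 83.8 and 83.9 CPM (1.58 ± 0.068 SE, adjusted p = 3.92e-09). The chains H2-Aa (11.7 and 10.7 against 31.1 and 30.6 CPM), H2-Ab1 (11.1 and 10.03 against 22.6 and 22.7 CPM) and H2-Eb1 (5.66 and 6.67 against 13.4 and 14.5 CPM) rose with it. The peptide-loading chains H2-DMb1 (2.45 and 2.41 against 6.54 and 6.67 CPM) and H2-DMa (2.35 and 2.46 against 5.02 and 4.84 CPM) were also higher. Ciita, the coactivator that class II transcription depends on, had 2.70 and 3.36 against 7.05 and 8.08 CPM (1.32 ± 0.17 SE, adjusted p = 0.00014). Both KO libraries lay above the WT libraries in each of these 7 called genes, and in 31.3% of all genes tested. H2-Ob, a chain that tempers peptide loading, had 2 and 1 counts in WT and 1 and 1 in KO and was not called. The general lysosomal members did not pass: Ctss had 283 and 271 against 256 and 248 CPM, Ifi30 76.3 and 78 against 76.3 and 80.3 CPM and Lgmn 15.4 and 17 against 15.5 and 16.3 CPM. Ctss passed as lower when 1 DSS-treated KO library was left out, whichever was taken (adjusted p = 0.00646 and 0.00636). Beside this rise, the 16 macrophage and dendritic cell markers summed to 10.6 and 11.5 CPM in WT and 10.2 and 10.2 CPM in KO, and the 12 B and plasma cell markers to 4.95 and 4.65 CPM in WT and 2.98 and 3.06 CPM in KO. Of the 12 macrophage and dendritic cell markers tested, Mrc1 alone was called (19 and 13 counts in WT, 32 and 41 in KO), and its adjusted p of 0.00314 became 0.0515 without KO replicate 2. Cd163, which marks tissue macrophages, had 1 count in WT and none in KO, and Flt3, which marks dendritic cells, 1 and 2 counts in WT and none in KO. Such counts are too few to compare the genotypes. The part of such cells in the rise was not tested.

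The Y box of class II promoters, the element bound by NF-Y, is shown for the chains in which it was matched exactly as CTGATTGG on either strand, at chr17:34287852-34287889 (minus strand) for H2-Aa and chr17:34305790-34305827 (plus strand) for H2-Eb1.
H2-Aa: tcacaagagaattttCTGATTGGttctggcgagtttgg
H2-Eb1: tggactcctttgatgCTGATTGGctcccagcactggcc
It was found in 2 of 10 class II promoters and in 5.18% of all. Among other lists it was found in 4 of 16 class I promoters and 7 of 28 mitosis promoters.

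Class I presentation, which displays peptides made inside the cell, rose by smaller amounts. Of 17 genes, all tested, 12 were higher and none lower (median 0.185). Nlrc5, the class I counterpart of Ciita, had 3.80 and 3.25 against 8.90 and 7.77 CPM (1.23 ± 0.16 SE). The peptide transporter gene Tap1 had 33.4 and 35.6 against 63.1 and 65.7 CPM (0.90 ± 0.059 SE), and the immunoproteasome subunit genes Psmb8 and Psmb9 had 27.4 and 30.2 against 42 and 44.4 CPM and 19 and 19.9 against 26.2 and 27.2 CPM. B2m, the light chain, rose from 229 and 221 CPM to 293 and 289 CPM (0.37 ± 0.048 SE). Without WT replicate 2, KO replicate 1 or KO replicate 2 the count was 6 in each case. Of 14 non-classical class I genes 5 were higher and none lower, and H2-T3, the thymus leukaemia antigen of intestinal epithelium, led with 6.61 and 7.56 against 16.2 and 16.2 CPM (1.20 ± 0.12 SE). H2-Q7, with 4.25 and 3.87 against 6.99 and 8.69 CPM, is among several near-identical Q genes whose reads cannot be firmly separated. The count of 5 became 2 without WT replicate 1 or KO replicate 2 and 3 without WT replicate 2 or KO replicate 1.

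The interferon-γ pathway itself was split. Of 17 tested genes 6 were higher and 4 lower (58.8% called, against 15.4% over all genes). Among the target genes, Ido1, a tryptophan-degrading enzyme, was higher at 0.751 and 1.177 against 3.69 and 3.92 CPM (1.99 ± 0.24 SE). Cd274, which encodes PD-L1, had 4.61 and 4.03 against 8.32 and 7.65 CPM, and Wars, a tRNA synthetase, 149 and 152 against 209.6 and 212 CPM. Irf2, an antagonist of Irf1, was lower, with 139 and 138 against 112 and 107 CPM (-0.34 ± 0.048 SE). The receptor chains were slightly lower, Ifngr1 at 291 and 273 against 255 and 251 CPM (-0.16 ± 0.043 SE) and Ifngr2 at 148 and 147 against 130.3 and 131 CPM (-0.17 ± 0.046 SE), and so was Ptpn2, a phosphatase that ends the signal, at 28.2 and 31.2 against 24.8 and 25 CPM. Those 3 small falls were lost when single libraries were left out. Ifngr1 was lost without WT replicate 1, KO replicate 1 or KO replicate 2 (adjusted p up to 0.238) and Ifngr2 without any 1 untreated library (up to 0.153). Ptpn2 was lost without WT replicate 2, KO replicate 1 or KO replicate 2 (up to 0.224). The count of lower members was 2 without WT replicate 1 or WT replicate 2 and 1 without KO replicate 1 or KO replicate 2. Ifng itself had 0 and 1 counts in WT and 0 and 0 in KO, and the chemokine genes Cxcl9 (0.901 and 0.616 against 0.89 and 0.857 CPM) and Cxcl10 (1.05 and 2.13 against 1.78 and 1.53 CPM) did not pass (adjusted p = 0.798 and 0.905). Among 31 genes that type I interferon induces, 10 were higher and none lower (median 0.134). Oasl2, an antiviral oligoadenylate synthetase-like protein, had 31.2 and 29.8 against 43.5 and 46.3 CPM and its relative Oasl1 18.5 and 22.4 against 29.7 and 29.1 CPM. Irf7, a transcription factor of the interferon response, had 59 and 59.9 against 81.1 and 80.2 CPM and Oas3 5.66 and 4.82 against 9.40 and 8.75 CPM. Without KO replicate 1 that count was 5, and without WT replicate 1 it was 6. Il18bp, the secreted inhibitor of interleukin-18, had 5.61 and 6 against 11.1 and 9.79 CPM (0.85 ± 0.12 SE), and H60c, a ligand of the NKG2D receptor, 1.55 and 1.74 against 4.32 and 4.84 CPM (1.48 ± 0.20 SE).

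Cholesterol synthesis rose along nearly its whole length. Of 21 genes, all tested, 17 were higher and 1 lower (median 0.448), and the number higher was 15 to 19 when single libraries were left out. Hmgcs1, which makes the HMG-CoA that the pathway starts from, had 273 and 268 against 435 and 436 CPM (0.69 ± 0.039 SE, adjusted p = 6.45e-08). Later enzymes moved by like amounts, with Idi1 at 108 and 105 against 173 and 169 CPM (0.68 ± 0.045 SE) and Fdps at 75.3 and 72.7 against 119 and 122 CPM. Of the sterol-forming steps, Sqle was at 116 and 118 against 181 and 177 CPM, Lss at 55.3 and 58.2 against 84.8 and 85.3 CPM and Cyp51 at 99.7 and 101 against 162 and 162 CPM (0.69 ± 0.043 SE). Ebp was the 1 lower gene, at 78.3 and 82.6 against 70.9 and 68.7 CPM, and its call was lost without any 1 untreated library and with one DSS-treated WT library removed, whichever it was.

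Genes of sterol sensing and uptake were divided, and the genes of sterol export did not pass the test. Of 18 tested genes of sterol sensing and uptake, 5 were higher and 2 lower (median -0.094, 38.9% called against 15.4% over all genes). Insig1, which holds SREBP in the endoplasmic reticulum, had 115 and 112 against 136 and 141 CPM. Srebf2, the SREBP2 gene, had 233 and 243 against 277 and 278 CPM. Mylip, an LXR-induced ubiquitin ligase, was lower, at 32.1 and 30.5 against 21.7 and 21 CPM (-0.56 ± 0.078 SE), as was Npc2, a lysosomal sterol carrier, at 277 and 274 against 235 and 236 CPM. The efflux transporters Abca1 (-0.22 ± 0.15 SE, adjusted p = 0.371), Abcg5 (-0.26 ± 0.12 SE, adjusted p = 0.175) and Abcg8 (-0.34 ± 0.18 SE, adjusted p = 0.23) did not pass. Npc1l1, the intestinal cholesterol importer, was too low to test, with 1 and 1 counts in WT and 7 and 10 in KO (ratio 10, 95% exact interval 2.38 to 89.5). In fatty acid synthesis 6 of 17 were higher and 2 lower: Fasn had 241 and 263 against 335 and 342 CPM (0.43 ± 0.058 SE), Elovl6 57.3 and 58.5 against 78.3 and 77.2 CPM and Me1 2.90 and 2.35 against 5.46 and 4.90 CPM. The desaturase gene Fads2 was lower at 194 and 210.2 against 164 and 165 CPM. The 2 lower became 1 without any 1 untreated library or 1 DSS-treated WT library, whichever was taken. Of 24 genes of fatty acid oxidation and ketogenesis, 1 was higher, 8 were lower and 15 were not called. Plin2, the lipid droplet coat protein, fell from 184 and 194 CPM to 144 and 142 CPM and Slc25a20, the mitochondrial carnitine carrier, from 194 and 191 CPM to 145 and 151 CPM. The count of 8 became 3 without WT replicate 1 or WT replicate 2 and 2 without KO replicate 1 or KO replicate 2. It was 4 with 1 DSS-treated WT library left out, whichever was taken. The 1 higher gene became 0 without any 1 untreated library and 2 with 1 DSS-treated KO library left out.

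In the cholesterol promoters the elements searched for were TCACNCCAC, a form of the sterol regulatory element, and the same Y box, both on either strand. They are shown for Hmgcs1 at chr13:119690199-119690237 (plus strand), Idi1 at chr13:8885543-8885580 (plus) and Lss at chr10:76531525-76531562 (plus), since these are the start, an early step and a late step of the pathway.
Hmgcs1: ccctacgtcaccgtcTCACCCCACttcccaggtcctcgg
Idi1: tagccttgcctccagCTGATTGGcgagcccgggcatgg
Lss: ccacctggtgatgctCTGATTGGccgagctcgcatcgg
The Y box was found in 6 of 19 promoters of the list (5.18% of all) and the sterol element in 1 of 19 (1.00% of all).

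Most genes of DNA replication and mitosis were higher in KO, with medians below those of the IRG, GBP and class II lists. Of 32 replication genes, all tested, 26 were higher and none lower (median 0.416), and of 32 mitosis genes 29 were higher and none lower (median 0.479). The replication count was 17 without WT replicate 2, and the mitosis count was 19 without KO replicate 2. DESeq2's Wald test and the effective-length offsets each called 17 replication genes higher. Among replication genes, Mcm5 and Mcm6, subunits of the replicative helicase, had 37.5 and 43.4 against 64.8 and 65 CPM (0.69 ± 0.064 SE) and 61.9 and 59.1 against 85.8 and 89.9 CPM. Rrm1 and Rrm2, the subunits of ribonucleotide reductase, had 48.1 and 47.3 against 66.1 and 70.8 CPM and 13.1 and 10.03 against 22.9 and 21.7 CPM (0.94 ± 0.11 SE). In mitosis, the topoisomerase gene Top2a had 79 and 76.3 against 125 and 115 CPM (0.63 ± 0.055 SE) and Kif11, a spindle motor, 22.1 and 24 against 36.5 and 36.2 CPM (0.66 ± 0.064 SE). Mki67, the source of the Ki-67 antigen, had 151 and 152 against 216 and 228 CPM and the mitotic kinase gene Cdk1 20.6 and 19.6 against 31.7 and 30.1 CPM. Outside the lists, Uhrf1, which keeps DNA methylation through replication, had 33.5 and 34.5 against 60.3 and 65.2 CPM, and the G1/S cyclin gene Ccne2 5.56 and 4.65 against 9.34 and 11.6 CPM. KO libraries were above WT libraries in 31 of 32 genes of each list, against 31.3% of all genes tested. The stem cell and Wnt-response genes of the crypt base did not rise with them: 2 of 17 tested were higher and 8 lower (median -0.177). Cd44 had 17.2 and 16.5 against 25.4 and 25.3 CPM and Prom1 180.0 and 184 against 233 and 233 CPM, both higher, while Slc12a2 was lower at 348 and 354 against 293 and 287 CPM. Ephb3, a receptor that sorts crypt cells, was lower at 49.3 and 51.8 against 40.2 and 42.7 CPM and lost its call without KO replicate 1 (adjusted p = 0.0634). Lgr5, the stem cell receptor, at 17.6 and 16.1 against 14.3 and 12.9 CPM, and Ascl2, at 8.71 and 8.07 against 4.38 and 6 CPM, were called lower (adjusted p = 0.0461 and 0.00783). Lgr5 lost its call without any 1 untreated library, and Ascl2 without WT replicate 1 or KO replicate 1. The number of lower genes on the list was 5 without WT replicate 1 or WT replicate 2 and 1 without KO replicate 1.

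TTTGAA, the cell cycle homology region through which many mitotic genes are kept silent outside division, was found on either strand in 12 of 28 mitosis promoters, 4 of 31 replication promoters and 11% of all. It was not particular to mitosis genes, with matches in 3 of 7 IRG promoters and 2 of 5 GBP promoters. It is shown with the Y box for Cdk1 at chr10:69352913-69353010 (minus strand) and alone for Mki67 at chr7:135716457-135716510 (minus strand).
Cdk1: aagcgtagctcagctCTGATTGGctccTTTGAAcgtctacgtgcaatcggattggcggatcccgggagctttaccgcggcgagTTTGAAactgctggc
Mki67: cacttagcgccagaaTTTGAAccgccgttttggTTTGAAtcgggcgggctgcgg
The 1 Y box and the 2 TTTGAA of Cdk1, and the 2 TTTGAA of Mki67, are in capitals.

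**Figure D3:**
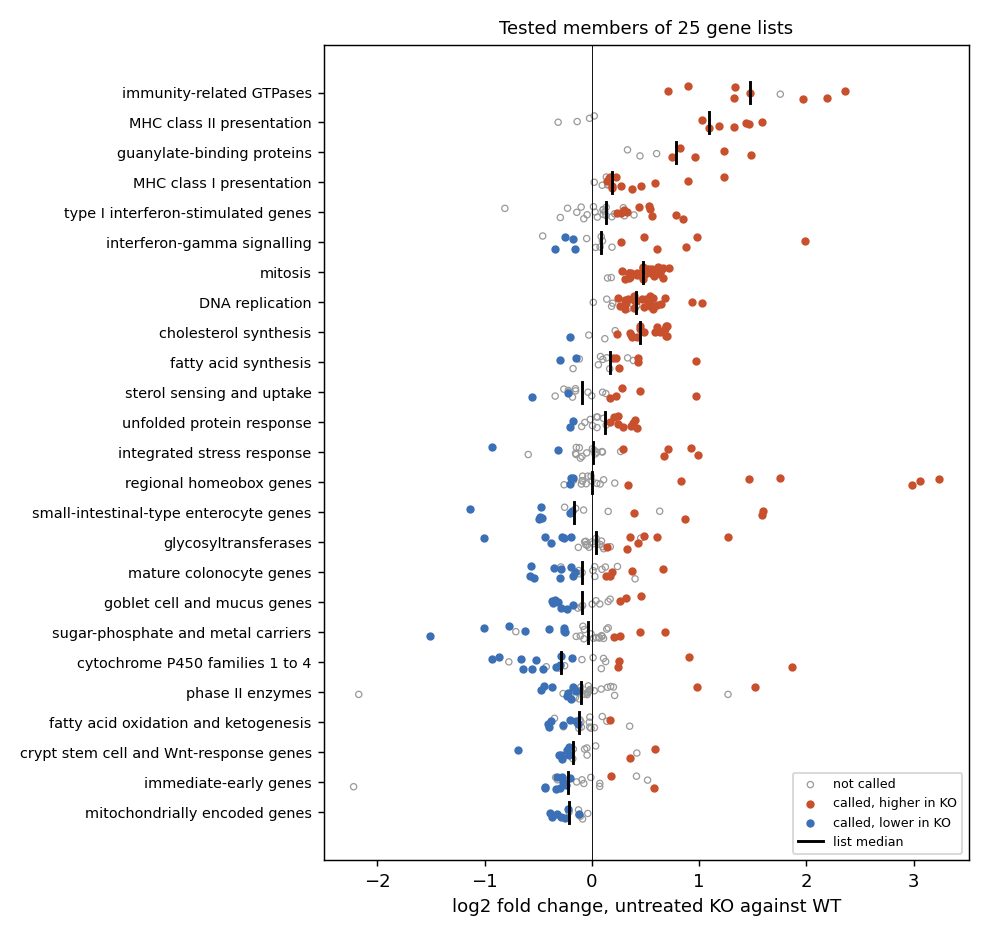
Each point is a tested gene of the list named on the left and its place is the log2 fold change of untreated KO against WT, with called genes filled and the list median as a bar. The IRG, class II and GBP lists lie farthest to the right, the mitosis, replication and cholesterol lists form tight groups on the right of zero, and the homeobox list has its tested members from Hoxb3 to Hoxb8 far from the rest.

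The anterior members of the Hoxb cluster, transcription factor genes that carry positional identity along the gut, were higher in KO, from levels near 0 in WT. Of 24 tested regional homeobox genes 7 were higher and 3 lower, and the median of the list was -0.003, with most members near zero. Hoxb6 had 0.2 and 0.224 against 1.72 and 2.39 CPM (3.24 ± 0.43 SE, adjusted p = 0.000156), Hoxb5 0.05 and 0.224 against 1.21 and 1.10 CPM (3.06 ± 0.55 SE, adjusted p = 0.00167) and Hoxb3 0.1 and 0.224 against 1.46 and 1.16 CPM (2.99 ± 0.48 SE, adjusted p = 0.000767). Those 3 were called without each library in turn, and DESeq2's Wald test gave them no adjusted p. Hoxb7 (0.4 and 0.168 against 1.14 and 0.857 CPM) and Hoxb8 (0.601 and 0.448 against 1.46 and 1.47 CPM) were also called, and each lost its call without any 1 untreated library. With the authors' effective lengths as offsets Hoxb8 had a log2 fold change of 0.44 (adjusted p = 0.532) in place of 1.46. Beside these rises, the fibroblast markers Dcn (5.26 and 4.88 against 7.43 and 7.96 CPM) and Col3a1 (1 and 1.29 against 2.03 and 2.20 CPM) were also called higher, and 1 or both of these calls were lost without any 1 untreated library. The part of such cells in the Hoxb, Osr2 and Tbx3 rises was not tested. Hoxb4, too low to test, had 2 and 1 counts in WT and 11 and 8 in KO (ratio 7.47, 95% exact interval 2.20 to 39.4). The neighbours at the other end of the same cluster were expressed at much higher levels and did not share the rise: Hoxb9 had 62.4 and 59.6 against 69.6 and 62.2 CPM (adjusted p = 0.256) and Hoxb13, which marks the most distal colon, 389.5 and 396 against 346 and 349.7 CPM (-0.18 ± 0.048 SE, adjusted p = 0.0222). Hoxd13 at 106 and 102 against 90.4 and 90.6 CPM and Hoxa10 at 48.6 and 48.2 against 43 and 41.8 CPM were the other 2 lower genes, and these 3 calls were lost without any 1 untreated library. Cdx2, the intestinal master regulator, rose from 108 and 111 CPM to 139.8 and 137 CPM (0.34 ± 0.048 SE). The number of higher genes was 4 without WT replicate 2, KO replicate 1 or KO replicate 2. Under DSS the KO effect was 0.93 in Hoxb6, -0.76 in Hoxb5 and 0.20 in Hoxb3, none of them called, and the difference from the untreated effect was called in Hoxb6 (adjusted p = 0.049) and Hoxb5 (adjusted p = 0.00941) but not in Hoxb3 (adjusted p = 0.0602).

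**Figure D4:**
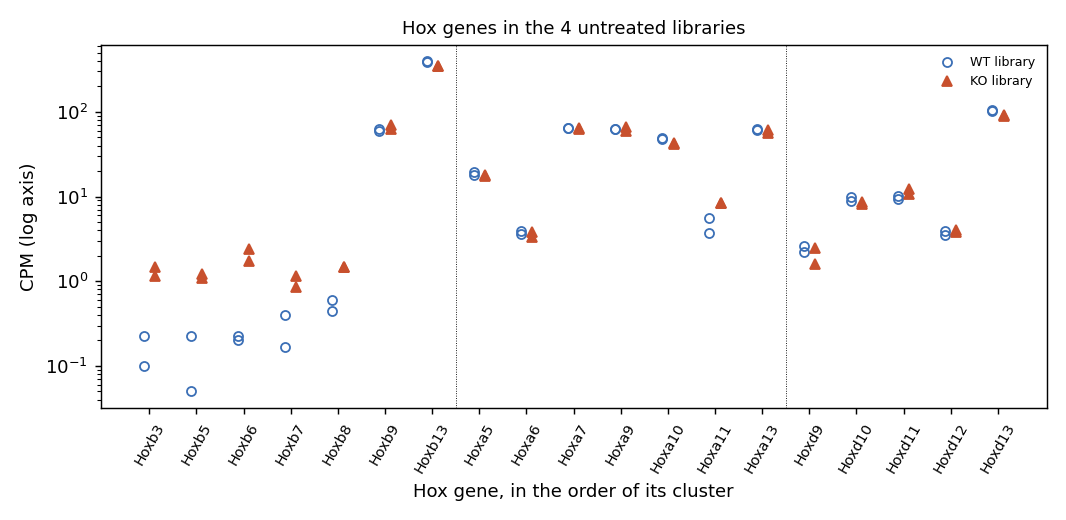
CPM on a log axis of the tested Hox genes in the 2 untreated WT libraries (circles) and the 2 KO libraries (triangles), in the order of the Hoxb, Hoxa and Hoxd clusters, which dotted lines separate. Hoxb3 to Hoxb8 are at most 0.601 CPM in WT and at least 0.857 CPM in KO, while the genotypes lie close together for Hoxb9, Hoxb13 and most Hoxa and Hoxd genes.

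Several genes of absorption that are better known from the small intestine were higher, but the list as a whole was divided, with 4 of 16 tested genes higher and 7 lower. Alpi, the intestinal alkaline phosphatase, had 7.46 and 7.12 against 21.2 and 22.8 CPM (1.59 ± 0.096 SE, adjusted p = 1.34e-07), and Fabp2, the fatty acid-binding protein of enterocytes, 128 and 123 against 232 and 227 CPM (0.87 ± 0.046 SE, adjusted p = 4.29e-08). Rbp2, which carries retinol, was lower at 22.6 and 21.5 against 16.4 and 15.1 CPM, as was the peptide carrier Slc15a1 at 168 and 171 against 144 and 148 CPM. Slc15a1 lost its call without WT replicate 2 (adjusted p = 0.0588) or KO replicate 1 (0.0957). Sucrase-isomaltase, Sis, was called higher at 0.25 and 0.28 against 0.762 and 0.857 CPM (1.59 ± 0.46 SE), and that call was lost without any 1 untreated library and with one DSS-treated WT library removed, whichever it was (adjusted p up to 0.185). Enpep (2.25 and 2.41 against 0.89 and 1.22 CPM) was called lower with all libraries and lost its call without any 1 untreated library. The number higher was 2 without WT replicate 1 or KO replicate 2. The number lower was 2 without WT replicate 2 or KO replicate 1 and 3 without KO replicate 2.

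Several further transport and vitamin A genes, picked with their values known and, apart from Fabp6, on no list, are given here singly. Slc51a, one chain of the transporter that passes bile acids to the blood, had 1 and 0.784 against 5.59 and 6 CPM (2.68 ± 0.23 SE, adjusted p = 3.46e-06), and Slc10a2, the apical bile acid importer, 4.46 and 4.26 against 9.60 and 8.88 CPM (1.08 ± 0.14 SE, adjusted p = 0.000149). The partner chain Slc51b moved less, from 13.9 and 13.2 CPM to 17 and 17.5 CPM, and lost its call without any 1 untreated library, while Fabp6, the bile acid-binding protein, had 2.05 and 2.13 against 3.18 and 3.31 CPM and did not pass (adjusted p = 0.062). Slc3a1, the heavy chain of the cystine transporter, had 9.86 and 12.1 against 24.5 and 23.5 CPM (1.14 ± 0.100 SE), whereas its partner light chain Slc7a9 was lower, at 9.31 and 8.52 against 6.16 and 4.90 CPM (-0.69 ± 0.15 SE, adjusted p = 0.00616). Slc13a1, a sulfate carrier, had 3.45 and 4.37 against 8.07 and 8.94 CPM (1.13 ± 0.17 SE). In vitamin A handling, Isx, the homeobox factor that represses carotenoid uptake, had 8.46 and 9.86 against 19.6 and 23.4 CPM (1.24 ± 0.11 SE), Lrat, which stores retinol as esters, 3.10 and 2.63 against 7.50 and 6.18 CPM (1.25 ± 0.19 SE) and Dhrs9, a retinol dehydrogenase, 10.7 and 11.1 against 22.1 and 20.6 CPM (0.97 ± 0.11 SE). The genes that Isx is known to repress did not pass, with Bco1 at 2.95 and 2.58 against 1.97 and 2.39 CPM (adjusted p = 0.378) and Scarb1 at 22.9 and 21 against 25 and 22.2 CPM (adjusted p = 0.45). Emp1, a small membrane protein, rose from 299 and 296 CPM to 660.5 and 654 CPM (1.14 ± 0.040 SE) and Clca4a from 218 and 212 CPM to 481 and 486 CPM (1.17 ± 0.040 SE). No KO library of Slc51a, Slc10a2, Slc3a1, Slc13a1, Isx, Lrat, Emp1 or Clca4a overlapped with WT, and each of the 8 was past 2-fold. Since they were picked with their values known, neither trait adds support. Over all genes tested, both KO libraries lay above WT in 31.3%, and 0.707% were called at least 2-fold higher.

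Mature colonocyte genes were also divided, 5 of 25 higher and 9 lower, all by less than 2-fold (56% called, against 15.4% over all genes). Krt20, the keratin of surface cells, rose from 670.4 and 681 CPM to 1078 and 1068 CPM (0.67 ± 0.036 SE), whereas Slc20a1, a phosphate carrier, fell from 878 and 867 CPM to 581 and 588 CPM (-0.58 ± 0.038 SE). The water channel gene Aqp8 fell from 509 and 494 CPM to 344 and 345 CPM and the acute-phase gene Saa1 from 886 and 848 CPM to 581 and 590.5 CPM. The number higher was 2 without WT replicate 1 or KO replicate 2 and 3 without WT replicate 2 or KO replicate 1. Goblet cell and mucus genes fell more often than they rose (3 of 18 higher, 7 lower, 55.6% called). Klk1 (1363 and 1286 against 1034 and 1018 CPM) and Bcas1 (138 and 132 against 108 and 106 CPM) were lower, while Muc2, the gel-forming mucin, was higher, from 3346 and 3498 CPM to 4281 and 4226 CPM (0.31 ± 0.051 SE), as was Retnlb (69.6 and 68.3 against 92.8 and 96.2 CPM). With 1 DSS-treated KO library left out, whichever was taken, 5 of the goblet genes were higher. Secreted antimicrobial genes were likewise split at 4 of 19 higher and 6 lower (52.6% called). Slpi, a protease inhibitor, had 5.26 and 6.39 against 13 and 13.8 CPM (1.21 ± 0.13 SE). Reg3b, an antimicrobial lectin, was at 0.35 and 0.056 against 1.02 and 1.77 CPM and its adjusted p of 0.00274 became 0.0571 without KO replicate 2. The receptor for secretory immunoglobulins, Pigr, fell from 4524 and 4599 CPM to 3908 and 3980.0 CPM. Without KO replicate 2, 2 of the antimicrobial genes were higher.

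Enzymes that build the glycans of mucins and glycolipids changed in both directions, 7 of 29 higher and 6 lower (44.8% called, against 15.4% over all genes). St3gal1, which caps O-glycans with sialic acid, had 7.31 and 8.01 against 19.9 and 17 CPM (1.27 ± 0.11 SE), and St8sia5, which builds gangliosides, fell to 9.02 and 8.08 CPM in KO from 17.3 and 17.1 CPM in WT (-1.01 ± 0.14 SE). Mgat4c had 194 and 186 against 253 and 258 CPM and B4galnt1, a ganglioside synthase, 41.9 and 41.5 against 60.2 and 56.6 CPM, both higher. St3gal6, at 225 and 215 against 169 and 156 CPM, and B3gnt7, at 1029 and 1063 against 864 and 865 CPM, were lower. For each named enzyme the libraries of the genotypes were separate. These enzymes were picked by rank, by small p or with their values known, so this adds no support. Over the 29 tested, the KO libraries lay above WT in 15 and below it in 11, against 31.3% and 28% of all genes.

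Carriers of sugar phosphates and metals held some of the largest falls. Of 28 genes, all tested, 4 were higher and 8 lower (42.9% called, against 15.4% over all genes). Slc37a2, a sugar-phosphate exchanger of the endoplasmic reticulum, had 365 and 367 against 182 and 184 CPM (-1.0 ± 0.042 SE, adjusted p = 3.92e-09), and its relative Slc37a4 56.6 and 52.3 against 43.7 and 47.4 CPM (-0.26 ± 0.063 SE). Slc37a4 lost its call without WT replicate 1 or KO replicate 1. Slc30a10, which exports manganese, was the largest fall of the ranked genes, with 14.5 and 14.4 against 4.70 and 5.45 CPM (-1.51 ± 0.12 SE, adjusted p = 1.58e-06). The metallothionein genes, which bind zinc and copper, fell together, Mt1 from 131 and 132 CPM to 87.2 and 84.4 CPM and Mt2 from 41.4 and 35.5 CPM to 24.6 and 20.7 CPM. Iron handling moved too. The exporter ferroportin, Slc40a1, was lower (251 and 249.7 against 189 and 190.3 CPM, -0.40 ± 0.040 SE), as were the ferritin chains Fth1 (-0.255 ± 0.042 SE) and Ftl1 (-0.26 ± 0.050 SE). Tfrc, the transferrin receptor, was higher (239.8 and 237 against 287 and 284 CPM, 0.26 ± 0.042 SE). The call of Ftl1 was lost without KO replicate 1. Slc39a4, a zinc importer, rose from 148 and 148 CPM to 204 and 200.2 CPM.

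Cytochrome P450 genes of families 1 to 4 were divided, with 11 of 25 tested lower and 4 higher (median -0.284, 60% called against 15.4% over all genes). With the authors' effective lengths as offsets 7 were lower. The Cyp2d cluster fell together. Cyp2d9 had 32.4 and 32.2 against 17.5 and 16.5 CPM (-0.93 ± 0.088 SE) and Cyp2d12 68 and 66.2 against 35.9 and 38 CPM (-0.86 ± 0.062 SE). Cyp2d10 had 55.6 and 54.5 against 34.9 and 35 CPM (-0.66 ± 0.056 SE) and Cyp2d34 234 and 235 against 171 and 172 CPM (-0.45 ± 0.047 SE). These are near-identical neighbours on chromosome 15 that may share reads. Cyp2c68 was also lower, at 188 and 183 against 129.6 and 129.8 CPM, but its relative Cyp2c65 was higher, at 38.3 and 35.9 against 68.4 and 70.7 CPM (0.91 ± 0.054 SE), and so was Cyp4b1, at 1.35 and 1.23 against 4.38 and 5.08 CPM (1.86 ± 0.24 SE). Of 34 conjugating (phase II) enzymes 2 were higher and 8 lower (29.4% called). The 2 were glucuronosyltransferases, Ugt1a1 at 29.3 and 26.5 against 54 and 56 CPM (0.98 ± 0.095 SE) and Ugt2b5 at 1.85 and 1.85 against 4.89 and 5.75 CPM (1.52 ± 0.20 SE). Gstm1, a glutathione transferase, was lower at 363 and 359.9 against 271 and 259.8 CPM (-0.45 ± 0.043 SE). The 8 became 2 without WT replicate 1 or KO replicate 2, 3 without WT replicate 2 and 1 without KO replicate 1. Reads of Ugt1a1 share the common exons of the Ugt1a locus with its other first-exon variants.

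Stress programmes moved in part. In the integrated stress response 5 of 22 tested genes were higher and 2 lower (31.8% called, against 15.4% over all genes). The serine synthesis genes Psat1 (5.16 and 5.55 against 12 and 9.24 CPM, 0.99 ± 0.13 SE) and Phgdh (7.96 and 7.84 against 12.5 and 12.6 CPM) rose. So did the mitochondrial folate enzyme Mthfd2 (4.80 and 4.03 against 8.32 and 8.51 CPM) and the amino acid carrier Slc7a5 (11.2 and 12.6 against 20.2 and 18.4 CPM). Gdf15, a secreted stress cytokine, fell (10.3 and 8.52 against 5.08 and 4.78 CPM, -0.93 ± 0.15 SE). The number lower was 1 without WT replicate 1, WT replicate 2, KO replicate 1 or 1 DSS-treated WT library, whichever was taken. The unfolded protein response had 9 of 20 members higher and 2 lower (55% called). The chaperone gene Hspa5 was at 331 and 326 against 438 and 442 CPM (0.42 ± 0.040 SE) and Hyou1 at 81.8 and 85.2 against 109 and 106 CPM. Without WT replicate 2 or KO replicate 2 the 9 became 5 and without KO replicate 1 they became 4, while the 2 lower became 0 without any 1 untreated library. Immediate-early genes, which respond within minutes to growth factors and stress, were lower in 9 of 22 and higher in 2 (50% called). Junb was at 182 and 174 against 132 and 131 CPM (-0.44 ± 0.051 SE), Dusp1 at 83.6 and 81.6 against 61.6 and 60.7 CPM and Fos at 398 and 403 against 333 and 327 CPM. The 2 higher became 1 without WT replicate 1 and 0 without each of the other untreated libraries. Gadd45b, a growth-arrest gene outside that list, had 18 and 18.3 against 11.4 and 10.04 CPM (-0.76 ± 0.095 SE).

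Few genes of NF-kB signalling were called in the absence of injury, and they had no common direction. Of 13 inhibitors 2 were higher and 2 lower (30.8% called, against 15.4% over all genes). Of 20 tested target genes 2 were higher and 2 lower (20% called). Of 12 subunits and kinases none passed in edgeR's quasi-likelihood test (3 at an unadjusted p under 0.05), though 2 were higher and 1 lower when 1 DSS-treated KO library was left out, whichever was taken, and none passed in DESeq2. Nfkbia, the gene of IκBα, was at 56.9 and 57.8 against 45.8 and 44.8 CPM (-0.34 ± 0.052 SE, adjusted p = 0.00046), and Nfkbiz, an atypical inhibitor, at 35.2 and 40.2 against 47.9 and 49.5 CPM (0.37 ± 0.068 SE). Traf1 had 10.5 and 9.69 against 16 and 16 CPM and Birc3 67.9 and 70.4 against 54.6 and 56.5 CPM. Higher inhibitors numbered 1 without WT replicate 1 or KO replicate 2 and lower ones 1 without WT replicate 2, KO replicate 1 or KO replicate 2. Lower targets numbered 1 without WT replicate 1 or KO replicate 2. Of 19 tested claudin and junction genes 3 were higher (15.8%, against 15.4% called over all genes), and Cldn4, with 35.1 and 40.5 against 60.7 and 59.6 CPM (0.67 ± 0.072 SE), was called without each library in turn. The 3 became 1 without WT replicate 1, KO replicate 1, KO replicate 2 or 1 DSS-treated WT library, whichever was taken, and 1 gene was lower with 1 DSS-treated KO library left out, whichever was taken.

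Clock genes that RORα and REV-ERB control through shared elements did not move as a block. Of 6 activator and ROR-element genes 2 were higher (33.3% called, against 15.4% over all genes). These were Cry1 at 7.56 and 8.07 against 16.6 and 13.9 CPM (0.97 ± 0.11 SE) and E2f8 at 13.8 and 13.7 against 24.1 and 22.8 CPM (0.77 ± 0.087 SE). Arntl, the classic target, had 12.7 and 11 against 11.1 and 9.86 CPM (adjusted p = 0.321). Nfil3 had 1.05 and 1.34 against 0.699 and 1.22 CPM (adjusted p = 0.606). Of 8 tested repressor and E-box output genes 3 were higher and 1 lower, with Per2 at 72.8 and 76.2 against 128 and 124 CPM (0.76 ± 0.049 SE), Cry2 at 44.8 and 46.7 against 57.9 and 58.9 CPM and Dbp at 135 and 129 against 102 and 94.4 CPM (-0.43 ± 0.059 SE). The time of day of collection is not given in the sources used here. The core of the ROR element, TAGGTCA on either strand within 250 bases before the start, was found in 1.92% of promoters of genes called higher, 1.69% of those called lower and 1.67% of all.

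Mitochondrially encoded genes were lower in 7 of 13 and higher in none (median -0.212), and they made up 8.05% and 7.75% of counts in WT and 7.23% and 7.28% in KO. The 7 became 2 without WT replicate 1, 4 without WT replicate 2, 1 without KO replicate 1 and 4 without KO replicate 2. It was 11 with 1 DSS-treated KO library left out, whichever was taken. This share is also a measure of the state of the cells at collection, and its part in the other results was not tested.

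A few genes were detected almost only in one genotype. By a rule of at most 3 counts over both libraries of one genotype and at least 20 over both of the other, 10 genes were near 0 in WT and 5 near 0 in KO. Myo18b, an unconventional myosin gene at chr5:112688876-112896362 (mm10), had 0 and 0 counts in WT and 82 and 70 in KO, so it was at least 59.8-fold higher against a floor of 3 counts over the group. It had the same pattern under DSS, with 1 and 2 counts in WT and 66 and 63 in KO, a ratio of 41.5 (95% exact interval 13.9 to 204). Osr2, a zinc finger transcription factor gene, had 0 and 0 counts in WT and 27 and 26 in KO (at least 20.8-fold higher), but 0 and 1 against 0 and 1 under DSS. Tbx3, a T-box factor gene, had 0.2 and 0 against 2.29 and 1.84 CPM (4.20 ± 0.59 SE, adjusted p = 0.000247) and was not called under DSS (-0.82). Several of the other genes were pseudogenes or unnamed models whose counts came and went between replicates of one group, such as Gm45837 with 0 and 295 counts in WT and 0 and 0 in KO.

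Called genes were spread over all chromosomes, from 10.8% of tested genes on chromosome 13 to 18.3% on chromosome 15 among the numbered ones. Within 5 Mb of Rora, on chromosome 9, 14 of 86 tested genes were called (16.3%), none of them by 2-fold. Runs of at least 4 adjacent tested genes all called higher numbered 6, and 4 of them were families already described: Hoxb8 to Hoxb3 on chromosome 11, H2-DMa to Psmb8 and H2-Q6 to Tcf19 on chromosome 17, and Gbp7 to Gbp2 on chromosome 3. H2-Q6 lost its call without WT replicate 1 or KO replicate 2 (adjusted p = 0.131 and 0.173), and Hoxb7 and Hoxb8 lost theirs without any 1 untreated library. Of the other two, one lay at Wdhd1 to Lgals3 on chromosome 14 and one at chr5:112276691-112378414, where Tpst2 (10.8 and 12.1 against 14.7 and 14.4 CPM), Tfip11 (45.8 and 47.5 against 70.0 and 68.4 CPM), Srrd (6.41 and 6.89 against 10.7 and 9.73 CPM) and Hps4 (27.9 and 30.3 against 37.3 and 39.2 CPM) were all higher. Srrd lost its call without WT replicate 1 or KO replicate 1 (adjusted p = 0.0543 and 0.066) and Tpst2 without WT replicate 1, KO replicate 1 or KO replicate 2 (up to 0.23). The end of that stretch lies 310 kb from Myo18b. Within 1 Mb of Myo18b, 6 of 18 other tested genes were higher and none lower, against 9.19% and 6.22% of all genes. Tfip11 had a log2 fold change of 0.57 ± 0.051 SE (adjusted p = 4.36e-06) and was also higher in KO under DSS (0.76), and Grk3, also within 1 Mb, had 4.46 and 5.21 against 4.64 and 5.20 CPM (adjusted p = 0.932).

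The same members were set beside the DSS-treated pair, in which 39.1% of genes were called, 21.3% higher and 17.7% lower. That pair shares no library with the untreated one, and the test of the difference between the 2 effects uses all 8. It called 1613 genes with a higher KO effect under DSS (10.8%) and 1595 with a lower one (10.6%), 21.4% in all. Leaving out untreated WT replicate 1 gave 971 and 943 and leaving out DSS-treated WT replicate 1 gave 949 and 954. Leaving out untreated KO replicate 1 gave 945 and 946, and leaving out its partner, replicate 2, gave 1000 and 985. IRGs and GBPs were higher in both: 9 of 9 and 7 of 8 were called higher under DSS, and the difference was called in 1 member of each list, Iigp1 (untreated 2.19, DSS 2.98) and Gbp5 (0.60 and 2.37). The 7 class II presentation genes called before injury had smaller fold changes under DSS, with the difference called in Cd74 (1.58 and 0.95), H2-Aa (1.46 and 0.93), H2-DMb1 (1.44 and 0.56) and H2-DMa (1.03 and 0.08). The difference was also called, in the other direction, in 2 antigen-processing enzymes of that list, Lgmn (-0.02 and 0.58) and Ifi30 (0.02 and 0.29). Cholesterol genes mostly had a smaller effect, with Ebp (-0.20 and 0.17) an exception: 9 of 21 were higher under DSS and the difference was called in 14, among them Hmgcs1 (0.69 and 0.00). Replication and mitosis genes were all higher under DSS (32 of 32 in each list), with the difference called in 27 of 32 and 29 of 32.

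Of the small-intestinal-type genes called higher before injury, Alpi, Fabp2 and Sis (1.59 and -2.10) were called lower under DSS, and the difference was called in 5 of the 16 tested genes of that list. Rbp2 (-0.49 and -0.15) and Anpep (-0.48 and -0.33) had negative values in both. Outside that list, Slc51a was at 1 and 0.784 against 5.59 and 6 CPM before injury and at 1.32 and 1.41 against 0.46 and 0.687 CPM under DSS. Alpi went from 7.46 and 7.12 against 21.2 and 22.8 CPM to 7.15 and 7.54 against 3.16 and 3.49 CPM, Fabp2 from 128 and 123 against 232 and 227 CPM to 110.0 and 115 against 33.2 and 35.5 CPM and the MHC class I-like gene H2-T3 from 6.61 and 7.56 against 16.2 and 16.2 CPM to 11.8 and 10.7 against 2.07 and 2.8 CPM. In each of these 4 the KO libraries were above WT before injury and below it after DSS, and the difference was called (adjusted p = 1.3e-05, 8.95e-08, 2.93e-11 and 4.44e-08). Of the bile acid carriers, Slc10a2 (1.08 and 2.36) and Slc51b (0.35 and 0.64) were higher in both. Of the immediate-early genes, 2 of 22 were higher and 9 lower before injury and 8 were higher and 6 lower under DSS. Single stress and metal genes, chosen after their values were seen, had opposite signs in the 2 pairs: Nfkbia was at 56.9 and 57.8 against 45.8 and 44.8 CPM before injury and at 49.6 and 48.6 against 77 and 79.4 CPM under DSS. Mt2 was at 41.4 and 35.5 against 24.6 and 20.7 CPM and then 45 and 44.9 against 87.7 and 94.8 CPM, and Junb at 182 and 174 against 132 and 131 CPM and then 89.8 and 99.5 against 131 and 136 CPM. KO was below WT before injury and above it under DSS in all 3. Slc30a10 was lower in both (-1.51 and -1.84, difference not called, adjusted p = 0.309), Gdf15 had -0.93 and -0.21, and Slc37a2 was lower in both with a smaller effect under DSS (-1.0 and -0.49). Of the neutrophil, macrophage and leukocyte markers, 9 of 9, 7 of 12 and 8 of 8 tested were called higher in KO under DSS, while before injury none, 1 and none were. Their part in the differences was not tested.

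**Figure D5:**
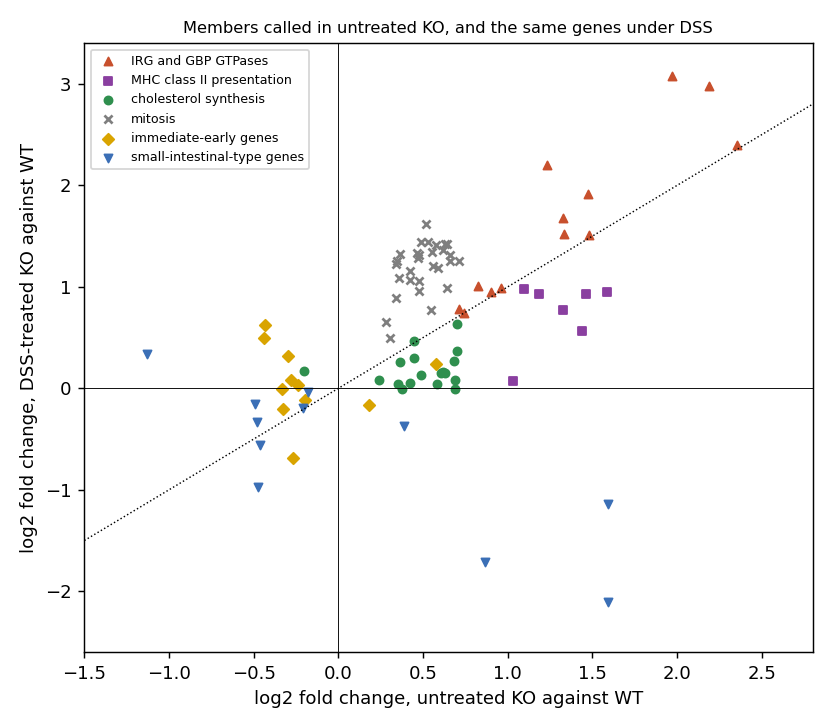
Each point is a member called in untreated KO, with its log2 fold change there on the horizontal axis and under DSS on the vertical axis, and the dotted line marks equal effects. IRG and GBP genes lie on or above the line, class II genes and most cholesterol genes lie below it, and mitosis genes lie above it. Alpi, Sis and Fabp2 lie in the lower right quadrant, where the sign turned.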

How the data were processed

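RNA-seq libraries of distal colon epithelial cells were compared between genotypes. Per the submitters' processing notes the tools included STAR 2.5.3a, RSEM 1.3.0 and DESeq2 1.18.1 with the mm10 genome, and the strand setting is not given in the sources used here. The deposited tables hold 53379 genes with the authors' RSEM expected counts, TPM and FPKM, per the file headers. Expected counts were rounded to whole numbers, TPM was used for Rora and FPKM was not used.

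All 8 libraries (4 groups of 2) were fitted together with edgeR 4.0.16 (quasi-likelihood, TMM scaling, 1 mean per group, 4 residual degrees of freedom, R 4.3.3), after edgeR's own filter on low counts left 14991 genes. Every adjusted p is from that fit with Benjamini-Hochberg adjustment, except where DESeq2 1.42.0 is named, and the threshold was 0.05. A fold change is KO minus WT on the log2 scale with its standard error (SE). Positions are from GENCODE M21. Promoters were found for 10707 tested gene symbols in RefSeq (GRCm38.p6).

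The members and lists were chosen with earlier results of these data known. The genes named by rule were Rora, Rorb, the 15 largest rises and 15 largest falls with a mean of at least 5 CPM and libraries that do not overlap, the 4 members of each list with the smallest p, and the 4 largest differences each way between the DSS and untreated effects. Unnamed gene models, pseudogenes, ribosomal protein, antigen receptor and haemoglobin genes were left out of the ranking. A few genes picked by these criteria go unreported here. Intervals and floors from counts cover counting error only.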

Additional observations from a re-analysis of the deposited data

Results flagged for a closer look

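The KO effect differed between the DSS-treated and the untreated pair, by the test of the difference itself, in 165 of the genes named by rule or in the text, and in 52 of them the genes were called in opposite directions. The 66 taken up here are those 52 and the genes with a called difference among the largest rises, falls and differences. Values are the log2 effect under DSS minus the untreated effect, so a negative value means that KO stood lower, relative to WT, under DSS. Such a difference was called in 21.4% of all genes.

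Among genes of absorption, bile acids and vitamin A the values were -3.99 for Lrat, -3.92 for Slc51a, -3.69 for Sis, -2.91 for Slc3a1, -2.85 for Slc13a1, -2.73 for Alpi, -2.58 for Fabp2 and -1.1 for Isx. Detoxifying enzymes held the 2 most negative values of the 66, -5.52 for Cyp4b1 and -4.52 for Ugt2b5, and others had -2.52 for Cyp2c55, -2.23 for Cyp2c65 and -1.82 for Ugt1a1, while Cyp2d12 had 0.33, Cyp2d9 0.67, Gsta3 0.61 and Cbr2 0.91. The size of the Cyp4b1 value is uncertain, as under DSS it had 7 and 8 counts in WT and 0 and 1 in KO. Lrat had 7 and 5 counts in KO under DSS. The urea cycle gene Nags had -3.48, the cyclic GMP-dependent kinase gene Prkg2 -3.17, the lipid transporter gene Abca12 -2.97 and Tppp3 -1.94. Surface and goblet cell genes had -1.49 (Emp1), -1.35 (Clca4a), -1.01 (Muc2) and -0.86 (Cldn4), against 0.6 for Best2, 0.8 for Clca3b and 1.7 for Clca4b. The glycan enzymes gave -1.89 for St3gal1, -1.08 for B4galnt1 and 1.5 for St8sia5.

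Of the immune genes, H2-T3 had -3.4, Reg3b -3.28, Apol10a -1.36, Traf1 -1.08, Cd74 -0.63, H2-Aa -0.53 and H2-Q2 -0.41. Positive values were 0.31 for Ifngr1, 0.5 for Ptpn2, 0.79 for Iigp1, 0.99 for Saa1, 1.01 for Nfkbia and 1.54 for Ly6c1. The stress, immediate-early and metal genes among the 66 had 0.49 for Ftl1, 0.52 for Slc40a1, 0.72 for Gdf15, 0.93 for Junb, 1.06 for Dusp1, 1.28 for Mt1, 1.4 for S100g, 1.44 for Gadd45b and 1.79 for Mt2. Slc37a2 had 0.51. Clock genes had -0.95 (Per2) and -0.82 (Cry2), and lipid genes -0.89 (Elovl6), -0.46 (Insig1) and 0.38 (Ebp). Among regional and stem cell genes, Cdx2 had -0.79, Prom1 -0.63, Hoxb13 0.39 and Hoxd13 0.91. Tph1, which makes serotonin in endocrine cells, had -0.85, the centrosomal gene Cep85 1.99 and the adenylate kinase gene Ak4 2.5.

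The fragile untreated calls among these were those of Sis, Reg3b, Ak4, S100g, Hoxb13, Hoxd13, Ebp, Ftl1, Gsta3, Clca3b, Ifngr1, Ptpn2 and H2-Q2, each lost without at least 1 untreated library.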

How the results depend on the processing

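With DESeq2's Wald test 665 genes were higher and 437 lower in untreated KO (1378 and 932 with edgeR), 1966 and 1451 under DSS (3198 and 2657), and the difference was called higher in 746 and lower in 726 (1613 and 1595). With the authors' effective lengths as offsets the untreated counts were 786 and 504 and the difference counts 882 and 912. With the 4 untreated libraries alone 1584 genes were lower. Leaving out single libraries gave 625 to 1833 higher and 328 to 1341 lower genes untreated, 2326 to 3391 and 1767 to 2791 under DSS, and 945 to 2276 and 943 to 2168 for the difference. Each library left out also removes residual degrees of freedom, and the cause of the other shifts was not tested. No value changed sign between a call and an alternative. DESeq2's size factors, upper-quartile scaling, no filter on low counts and a minimum of 5 CPM kept all 6 counts within 1.5 times.

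The labels do not say whether the replicate numbers pair the libraries. Correlations of same-numbered deviations between groups ran from -0.376 to 0.357. With 2 libraries a group, these values cannot decide whether the libraries were paired. With the replicate block the counts were 1305 and 881 untreated, 3153 and 2638 under DSS and 1555 and 1530 for the difference.

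Each group has 2 libraries, so every call rests on a spread estimated over all 4 groups. Genes under 1 CPM in WT (Hoxb3 to Hoxb8, Myo18b, Osr2) rest on few reads. Near-identical families (Tgtp, H2-Q, Cyp2d, Ugt1a) share reads.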

Other observations

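A few cell types outside the lists above could be followed through their markers. Enteroendocrine markers summed to 247 and 239 CPM in untreated WT and 242 and 241 CPM in KO, and 1 of 10 was higher and 2 lower. The 2 became 0 without WT replicate 1 or KO replicate 1 and 1 without WT replicate 2 or KO replicate 2, and the 1 became 2 without DSS-treated KO replicate 1 or DSS-treated KO replicate 2. Tuft cell markers summed to 17.5 and 17.2 CPM against 21.7 and 17.7 CPM, with none of 6 tested called by edgeR. Endothelial markers summed to 12.3 and 10.6 CPM against 7.68 and 8.07 CPM, so the genotypes did not overlap. Both tested markers, Pecam1 (5.05 and 3.87 against 2.48 and 2.75 CPM) and Vwf (6.76 and 6.44 against 4.89 and 4.65 CPM), were called lower, but neither was without WT replicate 1, KO replicate 1 or KO replicate 2, nor with DESeq2, and 1 was without WT replicate 2 or with 1 DSS-treated WT library removed.

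Further genes past 2-fold belonged to none of the lists. Xlr3b, an X-linked lymphocyte-regulated gene with near-identical neighbours, had 5.81 and 5.66 against 2.10 and 1.59 CPM (-1.64 ± 0.19 SE, adjusted p = 4.68e-05 with edgeR). The linker histone gene Hist1h1e had 3.90 and 4.71 against 2.16 and 1.90 CPM (-1.08 ± 0.20 SE, adjusted p = 0.00232 with edgeR). Rfx2, a transcription factor of ciliated and germ cells, had 1.6 and 1.91 against 5.34 and 6.18 CPM (1.72 ± 0.26 SE) and Lrp8, a lipoprotein receptor, 3.95 and 3.92 against 8.52 and 8.81 CPM (1.14 ± 0.14 SE). These genes were chosen after their values were seen.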
